A study of Homo sapiens with 18 samples.

Results

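The genes described here are 57 established direct targets of the transcription factor p53 that lie outside the better-known families of p53 inhibitors, CDK inhibitors, BCL2 proteins, sestrins and death receptors. They are a list of gene symbols drawn up with earlier results of these data known, although no measured value enters the list itself, and 55 of the 57 were found among the 26702 genes of the deposited comparisons. The expression of *SPATA18*, a mitochondrial quality control gene, and *HSPA4L*, a chaperone gene of the Hsp110 family, was not analysed here. Their promoter windows are among those searched below. RNA-seq of polyadenylated RNA was done in U2OS cells, a human osteosarcoma line. Each of 3 siRNAs, siControl, siANKRA2 and siRFXANK, was combined with DMSO solvent or with Nutlin-3a at 10 µM, applied for 24 h, which gave 6 groups of 3 samples and 18 samples in all. Nothing in the labels says whether the 3 samples of a group came from separate cultures, so p-values measure the spread between these samples, which may be technical. The siRFXANK samples were registered separately, carry labels of another form (bone as source, epithelial cells as cell type, wild-type as genotype) and have no siControl samples of their own. The effect of siRFXANK and a batch therefore cannot be told apart in any comparison of siRFXANK with siControl cells, and a batch drops out of the difference of their Nutlin-3a responses only as far as it acts alike under both treatments.

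p53 is held at a low level by the ubiquitin ligase MDM2. Nutlin-3a occupies the p53 pocket of MDM2, so that p53 accumulates without DNA damage and activates genes that carry its response element. Besides arrest and apoptosis genes, these targets serve nucleotide excision repair, mitochondrial metabolism, autophagy, RNA decay, and secretion of stress ligands. ANKRA2 and RFXANK are related ankyrin repeat proteins, and RFXANK is a subunit of the RFX complex that drives MHC class II genes.

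The p53 response element joins a pair of decamer half-sites, each with a core of C, A or T at both inner positions, and G. Promoter sequences of RefSeq on GRCh38.p14 were matched for 50 of the 57 genes, and each 300-base window, 250 bases before to 50 after the start, was searched on both strands for the 20-base p53 consensus without a spacer. With at most 2 mismatches, 2 of 50 windows held a match, 4% (exact binomial 95% interval 0.488 to 13.7), against 173 of 27305 windows of all genes, 0.634%. At most 3 mismatches were found in 10 of 50, 20%, against 5.13% of all windows. The 10 genes were *AEN*, *DCP1B*, *ABHD4*, *FDXR*, *GDF15*, *KITLG*, *RPS27L*, *TGFA*, *TRIM32* and *XPC*. A match is a description of letters and not a bound site, and a window without one says nothing about elements in introns or further away. Below are both matches with 2 mismatches, and 4 of those with 3 mismatches, picked as examples. Capitals mark the 4 core positions of each half-site.
AEN, chr15:88621306-88621325, plus strand: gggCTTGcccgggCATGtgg
DCP1B, chr12:2004650-2004669, minus strand: gggCAGGcctgggCTTGtcg
GDF15, chr19:18386186-18386205, plus strand: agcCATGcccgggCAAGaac
KITLG, chr12:88580633-88580652, minus strand: ggaCAAGgttggcCTAAtct
TGFA, chr2:70553863-70553882, minus strand: gggCAGGccctgcCTAGtct
XPC, chr3:14178570-14178589, minus strand: gaaTTTGcccagaCAAGcaa
In the GENCODE 29 annotation of GRCh38, the *AEN*, *KITLG*, *TGFA* and *XPC* sites lie in an exon of their own gene, in the UTR, and that of *XPC* also in a UTR exon of its neighbour *LSM3*. The *GDF15* site lies in a coding exon of *GDF15*. The *DCP1B* site lies in an exon of the noncoding gene *AC005342.1* and in an intron of *CACNA1C*.

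Before the members, the targets of the siRNAs and the identity of the cells were checked. On the log2 scale, *ANKRA2* after siANKRA2 was at -1.81 ± 0.18 (standard error) in DMSO and at -2.58 ± 0.12 in Nutlin-3a, relative to siControl cells. *RFXANK* was at -2.96 ± 0.10 in DMSO and at -3.16 ± 0.10 in Nutlin-3a after siRFXANK. The direction of the siRNA comparisons was first set so that the targets were lower, and it was then checked without them. For siANKRA2, the sums around the 4 siControl and siANKRA2 groups closed with this sign. For siRFXANK, standard errors predicted from the siControl and siANKRA2 comparisons were off by a median of 0.895% in DMSO and 0.662% in Nutlin-3a with this sign, and by 28.3% and 27.5% with the sign turned, over the 2817 and 2533 genes with at least a 2-fold change. *ANKRA2* itself rose with Nutlin-3a in siControl cells, by 1.95 ± 0.098. The mesenchymal and bone markers *COL1A1*, *VIM* and *SPARC* had authors' means over all samples of 64042, 55026 and 29456 normalized counts and *RUNX2* of 454.3, whereas *ALPL* was at 148 and *COL1A2* at 33.2. Of the epithelial markers, *KRT8* and *KRT18* were at 21456 and 12960, *CLDN4* at 599, *EPCAM* at 161, *CDH1* at 32.9 and *KRT19* at 1.67. The leukocyte marker *PTPRC* was at 3.81, and the endothelial markers *CDH5* and *PECAM1* were at 3.87 and 1.33.

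Levels below are group means in normalized counts, recovered from the authors' deposited log2 fold changes and standard errors, with DMSO before Nutlin-3a. Values of single libraries were not analysed here, so the overlap of samples between groups is not described, and the error of a comparison is the authors' standard error. Counts are not divided by transcript length and are compared within a gene only. A change is called where the adjusted p of DESeq2's Wald test, or of the normal test of a difference, is under 0.05, and 95% intervals are not adjusted for the number of genes.

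In siControl cells, Nutlin-3a raised nearly the whole set. Of the 55 genes, 53 were higher and 1 was lower, whereas 21.9% of the 25909 genes tested were higher and 21.2% lower. The median log2 fold change was 1.39 for the 55 genes and 0.015 for all genes, with a range from -0.41 to 4.36. The gene lower was *SAC3D1*, and *TNFAIP8* was not called, at 0.17 (95% interval -0.03 to 0.36, adjusted p = 0.183). At least a doubling was seen in 42 of the 55. In bulk RNA, fewer cells of a type and less RNA per cell cannot be told apart.

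**Figure D1:**
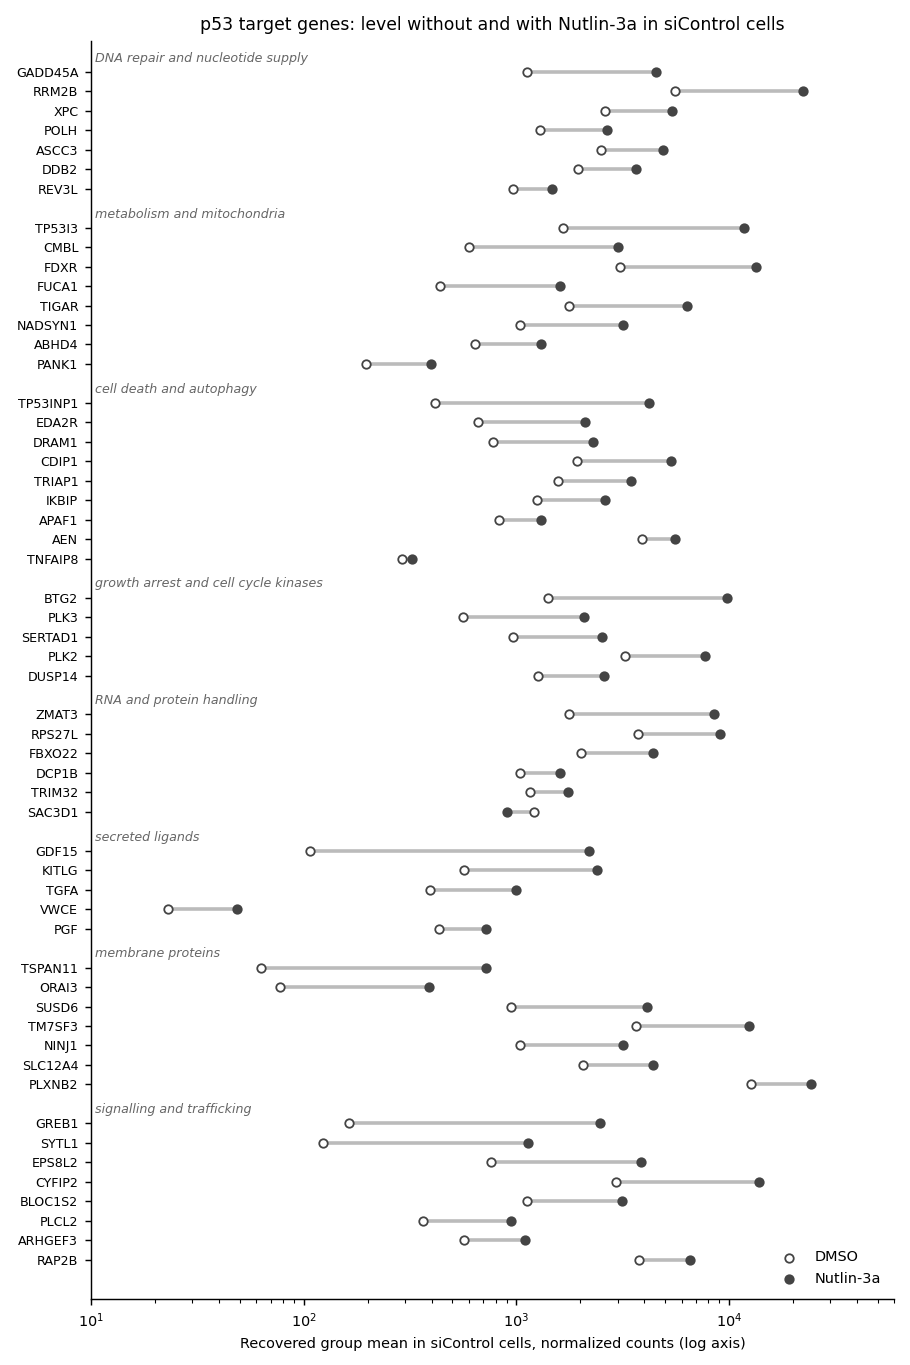
Recovered group means of the 55 genes in siControl cells, in normalized counts on a log axis, with DMSO as open and Nutlin-3a as filled points, sorted by size of the response within each role. The filled point lies to the right for every gene but *SAC3D1*, and the points of *TNFAIP8* nearly touch.

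Among the 7 genes of DNA repair and nucleotide supply, all were higher with Nutlin-3a in siControl cells, at a median log2 fold change of 1.05. *GADD45A*, a stress sensor that binds PCNA, went from 1123 to 4548 normalized counts in siControl cells, from 4703 to 6404 in siANKRA2 cells and from 1929 to 5855 in siRFXANK cells. Its response of 2.02 ± 0.05 was the largest of the list (adjusted p listed at 0). *REV3L*, the catalytic subunit of translesion polymerase zeta, had the smallest, 0.61 ± 0.11 (adjusted p = 3.36e-08), and went from 967 to 1477 normalized counts in siControl cells, from 469 to 615 in siANKRA2 cells and from 943 to 1827 in siRFXANK cells. *RRM2B*, the p53-inducible small subunit of ribonucleotide reductase, followed *GADD45A* closely at 2.002 ± 0.042, from 5560 to 22264. The damage recognition factors of nucleotide excision repair *XPC* and *DDB2* stood at 1.05 ± 0.042 and 0.91 ± 0.051. *POLH*, the translesion polymerase that copies past ultraviolet lesions, went from 1292 to 2681 normalized counts in siControl cells, from 1002 to 1988 in siANKRA2 cells and from 1115 to 2777 in siRFXANK cells. *ASCC3*, a helicase of alkylation repair, went from 2491 to 4906 normalized counts in siControl cells, from 3138 to 3841 in siANKRA2 cells and from 1931 to 5541 in siRFXANK cells, so that its level in Nutlin-3a was lowest in siANKRA2 cells and highest in siRFXANK cells.

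All 8 genes of metabolism and mitochondria found in the tables were higher, at a median of 1.86. *TP53I3*, a quinone oxidoreductase, led with 2.83 ± 0.061 (adjusted p listed at 0) and went from 1660 to 11780 normalized counts in siControl cells, from 1694 to 5533 in siANKRA2 cells and from 1714 to 7893 in siRFXANK cells. *PANK1*, the kinase that opens coenzyme A synthesis, changed least, by 1.01 ± 0.098 (adjusted p = 6.73e-24), and went from 197 to 396 normalized counts in siControl cells, from 125 to 245 in siANKRA2 cells and from 223 to 367 in siRFXANK cells. Between them lay *CMBL*, a cytosolic hydrolase, at 2.33 ± 0.051, and *FDXR*, the mitochondrial ferredoxin reductase, at 2.12 ± 0.065. The lysosomal fucosidase *FUCA1* was at 1.87 ± 0.067, and the NAD synthetase *NADSYN1* at 1.61 ± 0.051. *TIGAR*, a phosphatase that lowers fructose-2,6-bisphosphate and with it glycolysis, was at 1.84 ± 0.044. Of the 31-base stretches of its longest transcript, 49.0% also occur in another gene, *AC008012.1* included, so its counts are uncertain. *ABHD4*, a lipase of N-acyl phospholipids, went from 639 to 1304 normalized counts in siControl cells, from 1248 to 2079 in siANKRA2 cells and from 647 to 937 in siRFXANK cells.

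Of 9 genes of cell death and autophagy, 8 were higher, at a median of 1.15. *TP53INP1*, a p53 cofactor that also acts in autophagy, went from 416 to 4217 normalized counts in siControl cells, from 303 to 1338 in siANKRA2 cells and from 485 to 2914 in siRFXANK cells. Its response in siControl cells was 3.34 ± 0.078 (adjusted p listed at 0), the largest of the list. *TNFAIP8*, known as an inhibitor of apoptosis, was the gene not called and went from 290 to 325 normalized counts in siControl cells, from 91.9 to 101 in siANKRA2 cells and from 331 to 351 in siRFXANK cells. Its level was thus lower in both siANKRA2 groups than in the other 4 groups. The autophagy gene *DRAM1* and the ectodysplasin receptor *EDA2R* responded by 1.55 ± 0.049 and 1.67 ± 0.064. *CDIP1*, a pro-apoptotic membrane protein, was at 1.48 ± 0.045, and *IKBIP*, an IKK-binding protein, at 1.06 ± 0.047. *TRIAP1*, which restrains apoptosis, was at 1.15 ± 0.05. *APAF1*, the scaffold of the apoptosome, went from 827 to 1308 normalized counts in siControl cells, from 317 to 595 in siANKRA2 cells and from 493 to 1220 in siRFXANK cells. The nuclease *AEN*, whose promoter window holds one of the closest matches above, responded by 0.51 ± 0.034, from 3898 to 5556.

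All 5 genes of growth arrest and cell cycle kinases were higher, at a median of 1.39. *BTG2*, an antiproliferative factor that recruits the CCR4-NOT deadenylase, went from 1416 to 9798 normalized counts in siControl cells, from 1447 to 4455 in siANKRA2 cells and from 2009 to 8537 in siRFXANK cells, a change of 2.79 ± 0.042 in siControl cells (adjusted p listed at 0). *DUSP14*, a MAP kinase phosphatase, had the smallest response, 1.03 ± 0.047 (adjusted p = 5.15e-103), and went from 1266 to 2581 normalized counts in siControl cells, from 3232 to 4706 in siANKRA2 cells and from 1472 to 2602 in siRFXANK cells. Its levels were thus highest in siANKRA2 cells under either treatment. The polo-like kinase genes *PLK3* and *PLK2* were at 1.90 ± 0.068 and 1.24 ± 0.039, and *SERTAD1*, a CDK4-binding coactivator of E2F, at 1.39 ± 0.056. *PLK3* went from 560 to 2089 normalized counts in siControl cells, from 1475 to 2285 in siANKRA2 cells and from 1610 to 3766 in siRFXANK cells.

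In RNA and protein handling, 5 of 6 genes were higher and *SAC3D1* was lower, at a median of 0.88. *ZMAT3*, an RNA-binding zinc finger protein, went from 1763 to 8515 normalized counts in siControl cells, from 2046 to 4529 in siANKRA2 cells and from 2731 to 11089 in siRFXANK cells, a change of 2.27 ± 0.058 in siControl cells (adjusted p listed at 0). *SAC3D1*, a SAC3 domain protein linked to the centrosome, went from 1210 to 908 normalized counts in siControl cells, from 833 to 894 in siANKRA2 cells and from 1749 to 1160 in siRFXANK cells. It fell with Nutlin-3a in siControl cells, -0.41 ± 0.06 (adjusted p = 2.42e-11). *RPS27L*, a paralog of the ribosomal protein RPS27, was at 1.28 ± 0.051, and the F-box protein gene *FBXO22* at 1.12 ± 0.038. *DCP1B*, a cofactor of mRNA decapping, and the ubiquitin ligase gene *TRIM32* were at 0.63 ± 0.052 and 0.59 ± 0.048.

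All 5 secreted ligands were higher, at a median of 1.34. *GDF15*, a stress hormone of the TGF-beta superfamily, had the largest response of all 55 genes, 4.36 ± 0.097 or 20.6-fold, and went from 107 to 2203 normalized counts in siControl cells, from 545 to 3428 in siANKRA2 cells and from 435 to 7144 in siRFXANK cells. *PGF*, a growth factor of the VEGF family, had the smallest of the list, 0.74 ± 0.075 (adjusted p = 7.66e-22), and went from 433 to 722 normalized counts in siControl cells, from 654 to 1423 in siANKRA2 cells and from 360 to 627 in siRFXANK cells. *KITLG*, the ligand of the KIT receptor, went from 568 to 2394 normalized counts in siControl cells, from 1861 to 3642 in siANKRA2 cells and from 544 to 2157 in siRFXANK cells. *TGFA*, a ligand of the EGF receptor, went from 394 to 996 normalized counts in siControl cells, from 380 to 719 in siANKRA2 cells and from 283 to 1064 in siRFXANK cells. *VWCE*, a secreted protein with von Willebrand and EGF domains, had the lowest normalized counts of the set and went from 23.0 to 48.7 normalized counts in siControl cells, from 24.6 to 37.4 in siANKRA2 cells and from 43.2 to 69.9 in siRFXANK cells. Its standard errors were the widest of the set, and its response in siControl cells was 1.08 ± 0.26 (adjusted p = 0.000132).

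All 7 membrane proteins were higher, at a median of 1.77. The tetraspanin gene *TSPAN11* went from 62.8 to 717 normalized counts in siControl cells, from 63.2 to 352 in siANKRA2 cells and from 68.8 to 586 in siRFXANK cells, a change of 3.51 ± 0.13 (adjusted p = 1.1e-161) in siControl cells. *PLXNB2*, a semaphorin receptor, had the smallest response, 0.94 ± 0.049 (adjusted p = 1.79e-81), and went from 12677 to 24284 normalized counts in siControl cells, from 11090 to 17035 in siANKRA2 cells and from 18276 to 34551 in siRFXANK cells. *ORAI3*, a calcium channel subunit, went from 77.2 to 387 normalized counts in siControl cells, from 87.5 to 245 in siANKRA2 cells and from 79.7 to 248 in siRFXANK cells. Its counts are uncertain, since 51.5% of the 31-base stretches of its longest transcript also occur in other genes, *AC135048.1* included. The sushi domain gene *SUSD6* was at 2.14 ± 0.041, *TM7SF3* at 1.77 ± 0.036, and *NINJ1*, a mediator of plasma membrane rupture, at 1.61 ± 0.059. The potassium chloride cotransporter gene *SLC12A4* went from 2050 to 4394 normalized counts in siControl cells, from 2172 to 2822 in siANKRA2 cells and from 4435 to 7762 in siRFXANK cells.

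All 8 genes of signalling and trafficking were higher, at a median of 1.86. *GREB1*, a cofactor of the oestrogen receptor, led with 3.92 ± 0.088 (adjusted p listed at 0) and went from 164 to 2485 normalized counts in siControl cells, from 319 to 1733 in siANKRA2 cells and from 226 to 2391 in siRFXANK cells. *RAP2B*, a small GTPase, responded least, 0.81 ± 0.031 (adjusted p = 2.72e-148), and went from 3766 to 6594 normalized counts in siControl cells, from 3796 to 5455 in siANKRA2 cells and from 3667 to 4430 in siRFXANK cells. *SYTL1*, a Rab27 effector, went from 124 to 1130 normalized counts in siControl cells, from 161 to 520 in siANKRA2 cells and from 73.5 to 562 in siRFXANK cells. *EPS8L2*, an actin regulator, went from 759 to 3857 normalized counts in siControl cells, from 527 to 1847 in siANKRA2 cells and from 671 to 2552 in siRFXANK cells. The WAVE complex subunit gene *CYFIP2* was at 2.23 ± 0.048, the BLOC-1 subunit gene *BLOC1S2* at 1.48 ± 0.049 and the phospholipase C-like gene *PLCL2* at 1.38 ± 0.072. *ARHGEF3*, a guanine nucleotide exchange factor, was at 0.95 ± 0.066.

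In siANKRA2 cells Nutlin-3a still raised most of the set, by less. Of the 55 genes, 51 were higher and 0 lower, whereas 15.5% of the 22738 genes tested were higher and 17% lower. The median log2 fold change was 0.80, against 0.0061 for all genes. The 4 genes not called were *AEN* at 0.058 (95% interval -0.0067 to 0.12, adjusted p = 0.182), *SAC3D1* at 0.10 (95% interval -0.019 to 0.22, adjusted p = 0.217), *TNFAIP8* at 0.13 (95% interval -0.14 to 0.41, adjusted p = 0.544) and *VWCE* at 0.60 (95% interval 0.07 to 1.13, adjusted p = 0.0754). *GDF15* again had the largest response, 2.65 ± 0.065. In siRFXANK cells the response was derived from the siRFXANK over siControl comparisons and the siControl response, on the assumption that all share 1 fit. There, 53 genes were higher and 1 was lower, whereas 22.8% and 22.5% of 25116 genes were. The median was 1.31, against 0.014 for all genes. *SAC3D1* fell here too, -0.59 ± 0.057 (adjusted p = 3.8e-24) by the normal test with Benjamini-Hochberg adjustment, and *TNFAIP8* was not called, at 0.087 (95% interval -0.11 to 0.28, adjusted p = 0.519).

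**Figure D2:**
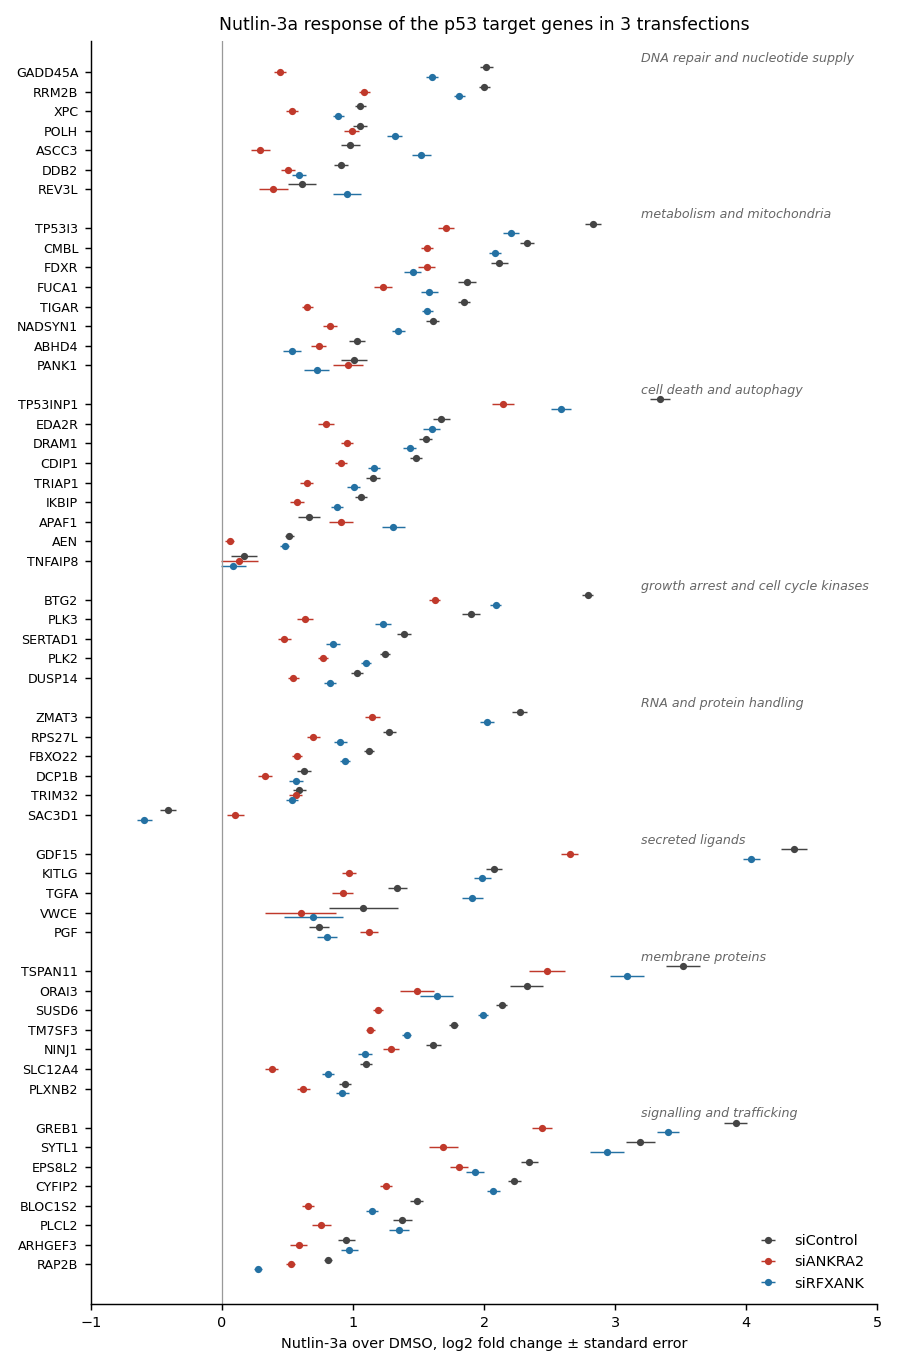
Nutlin-3a response of each of the 55 genes as log2 fold change with its standard error in siControl (grey), siANKRA2 (red) and siRFXANK cells (blue, derived). The red points lie left of the grey ones for most genes, and the blue points of *ASCC3*, *TGFA*, *APAF1* and *POLH* are among those to the right of grey.

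The responses were then compared directly. Differences were called by the normal test of the difference with Benjamini-Hochberg adjustment over all genes. The response was smaller in siANKRA2 than in siControl cells for 46 of the 55 genes. The difference was positive for 2, *PGF*, which rose more, and *SAC3D1*, whose fall in siControl cells was not seen in siANKRA2 cells. Over the 22738 genes tested, 12.5% had a lower and 11.4% a higher value. The median difference was -0.58 on the log2 scale, against -0.017 for all genes. Genes raised by Nutlin-3a were also looked at alone. Of the 42 members that were at least 2-fold higher with Nutlin-3a in siControl cells, 39 or 92.9% had a smaller response in siANKRA2 cells. Of all genes at least 2-fold higher, at any mean as for the members, 865 of 1659 or 52.1% had one, and of those with an authors' mean of at least 100, 612 of 686 or 89.2%. All these shares use the siControl response to choose the genes and again to form the difference, and they are given as a description. The smaller response is not shown to be particular to these targets. In siANKRA2 cells the 42 members kept a median of 56.1% of their siControl log2 response, from 22.1% for *GADD45A* to 95.6% for *PANK1*, the 1659 genes a median of 45.9% and the 686 genes a median of 47.6%.

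By size of the difference, *GDF15* came lowest with -1.71 ± 0.12 (adjusted p = 4.09e-46). It was followed by *GADD45A* with -1.57 ± 0.068 (adjusted p = 8.01e-116), *SYTL1* with -1.50 ± 0.15 (adjusted p = 8.73e-21) and *GREB1* with -1.48 ± 0.12 (adjusted p = 4.99e-34). All 4 still rose with Nutlin-3a in siANKRA2 cells, *GADD45A* by 0.45 and *GDF15* by 2.65 on the log2 scale. At the other end *SAC3D1* was at 0.52 ± 0.086 (adjusted p = 3.83e-08) and *PGF* at 0.38 ± 0.10 (adjusted p = 0.00117). *SAC3D1* fell in siControl cells and was not called in siANKRA2 cells, and *PGF* rose in both, by 0.74 and 1.12. The smallest of the called decreases were those of *RAP2B*, -0.29 ± 0.044 (adjusted p = 2.56e-09), and *ABHD4*, -0.29 ± 0.087 (adjusted p = 0.00507). By role, the decrease was called in 5 of 7 repair genes, 7 of 8 metabolic genes, 7 of 9 genes of cell death and autophagy, 5 of 5 arrest genes, 4 of 6 genes of RNA and protein handling, 3 of 5 ligands, 7 of 7 membrane proteins and 8 of 8 signalling genes. The 7 genes not called were *POLH* at -0.065, *REV3L* at -0.22, *PANK1* at -0.044, *APAF1* at 0.25, *TNFAIP8* at -0.034, *TRIM32* at -0.026 and *VWCE* at -0.48. The 95% interval of *POLH* ran from -0.22 to 0.087, and that of *VWCE* from -1.22 to 0.26.

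After siRFXANK the response was smaller for 31 of the 55 genes and larger for 4, whereas 9.64% of the 25116 genes tested had a lower and 11.6% a higher value. The median difference was -0.25, against -0.0063 for all genes. Of the 42 members at least 2-fold higher, 29 or 69.0% had a smaller response, against 395 of 1705 or 23.2% of all genes at least 2-fold higher and 42.9% of the 686 genes. Those 42 kept a median of 83.5% of their siControl log2 response, the 1705 genes a median of 75.6% and the 686 genes a median of 84.8%. Here too the siControl response both chose the genes and formed the difference, so these shares are a description. The smaller response after siRFXANK is likewise not shown to be particular to these targets. The largest decreases were those of *TP53INP1*, -0.75 ± 0.11 (adjusted p = 4.28e-10), *BTG2*, -0.70 ± 0.058 (adjusted p = 2.07e-30), *ORAI3*, -0.69 ± 0.18 (adjusted p = 0.00126), and *PLK3*, -0.67 ± 0.09 (adjusted p = 1.01e-11). The 4 larger responses were those of *APAF1*, 0.64 ± 0.12 (adjusted p = 2.2e-06), *TGFA*, 0.57 ± 0.11 (adjusted p = 3.73e-06), *ASCC3*, 0.54 ± 0.10 (adjusted p = 4.9e-06), and *POLH*, 0.26 ± 0.076 (adjusted p = 0.00442). The 20 genes not called held 7 of repair, metabolism and cell death with 0.34 for *REV3L*, -0.29 for *PANK1*, -0.032 for *AEN*, -0.15 for *TRIAP1*, -0.12 for *DRAM1*, -0.074 for *EDA2R* and -0.079 for *TNFAIP8*. Of the others, -0.063 for *DCP1B*, -0.057 for *TRIM32* and -0.18 for *SAC3D1* were measured for RNA and protein handling, and -0.087 for *KITLG*, 0.063 for *PGF* and -0.38 for *VWCE* for ligands. Membrane and signalling genes were at -0.019 for *PLXNB2*, -0.15 for *SUSD6*, -0.42 for *TSPAN11*, -0.16 for *CYFIP2*, -0.025 for *PLCL2*, -0.26 for *SYTL1* and 0.024 for *ARHGEF3*.

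**Figure D3:**
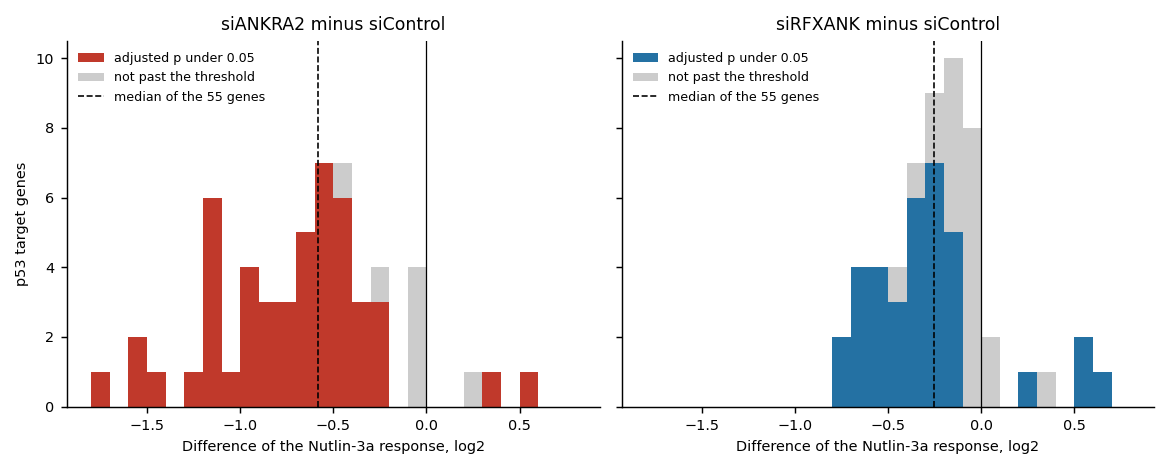
Number of the 55 genes by their difference of Nutlin-3a response on the log2 scale, in bins of 0.1, for siANKRA2 (left) and siRFXANK (right) minus siControl, with called genes in colour and the others in grey. The median, dashed, is at -0.58 on the left and at -0.25 on the right, and 4 coloured genes lie above 0 on the right.

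Both differences share the siControl samples, so their values are given side by side and not as support for each other. A smaller response was called after both siRNAs in 31 genes, among them *GDF15* at -1.71 after siANKRA2 and -0.32 after siRFXANK, *BTG2* at -1.17 and -0.70, and *FDXR* at -0.56 and -0.66. In 13 genes it was called after siANKRA2 only, such as *KITLG* at -1.11 and -0.087 and *EDA2R* at -0.88 and -0.074. The calls went in opposite directions in *ASCC3*, at -0.69 and 0.54, and in *TGFA*, at -0.42 and 0.57. The difference between the siRNAs was itself not tested. The overlap of calls was not counted over all genes, so these counts are not shown to be particular to these targets.

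A smaller log2 response can come from a higher level in DMSO or a lower level in Nutlin-3a, and both were seen. In DMSO, siANKRA2 cells had 28 of the 55 genes higher and 13 lower than siControl cells, whereas 24.3% of the 26702 genes tested were higher and 24.5% lower. The median was 0.18, against 0.012 for all genes. The largest rises were in *GDF15*, 2.35 ± 0.10 (adjusted p = 9.31e-115), *GADD45A*, 2.07 ± 0.05 (adjusted p listed at 0), *KITLG*, 1.71 ± 0.064 (adjusted p = 1.01e-157), and *PLK3*, 1.40 ± 0.069 (adjusted p = 6.35e-90). Their levels without Nutlin-3a thus reached 5.09-fold, 4.19-fold, 3.27-fold and 2.63-fold of the siControl level. *GADD45A* stood at 4703 normalized counts in siANKRA2 cells in DMSO and at 4548 in siControl cells with Nutlin-3a. The largest falls were in *TNFAIP8*, -1.66 ± 0.12 (adjusted p = 1.19e-39), *APAF1*, -1.38 ± 0.093 (adjusted p = 3.39e-49), *REV3L*, -1.04 ± 0.11 (adjusted p = 1.66e-20), and *IKBIP*, -0.68 ± 0.053 (adjusted p = 3.94e-36). The 14 genes not called included metabolic genes, with 0.012 for *FDXR*, 0.029 for *TP53I3*, -0.055 for *FUCA1* and -0.046 for *NADSYN1*, and membrane protein genes, with -0.0094 for *NINJ1*, 0.0095 for *TSPAN11*, 0.18 for *ORAI3* and 0.083 for *SLC12A4*. The others were at -0.0085 for *DDB2*, 0.031 for *BTG2*, -0.051 for *TGFA*, 0.098 for *VWCE*, 0.081 for *PLCL2* and 0.012 for *RAP2B*. By role, 4 of 5 arrest genes and 3 of 5 ligands were higher and 0 lower, and of 7 repair genes 3 were higher and 3 lower. Markers of cell type moved as well. Of 6 mesenchymal and bone markers 3 were higher and 3 lower, with *ALPL* at 2.35, *COL1A1* at 0.60 and *VIM* at -0.55 on the log2 scale, and of 6 epithelial markers 3 were higher and 1 lower, with *CDH1* at 1.56, *KRT18* at 1.09 and *CLDN4* at -0.90. *PTPRC* was at 2.77 ± 0.93 (adjusted p = 0.0073, DESeq2's Wald test) at its low level, and *CDH5* and *PECAM1* were not called. The part of these markers in the effects on the set was not tested.

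With Nutlin-3a the balance was the other way. In siANKRA2 cells 11 of the 55 genes were higher and 36 lower than in siControl cells, whereas 24.6% of genes were higher and 25.5% lower, and the median was -0.38, against -0.0075. The lowest were *TNFAIP8*, -1.69 ± 0.12 (adjusted p = 1.78e-43), *TP53INP1*, -1.66 ± 0.071 (adjusted p = 1.95e-119), *REV3L*, -1.26 ± 0.11 (adjusted p = 5.36e-31), and *IKBIP*, -1.17 ± 0.048 (adjusted p = 3.69e-129). The highest were *PGF*, 0.98 ± 0.067 (adjusted p = 6.53e-47), *DUSP14*, 0.87 ± 0.043 (adjusted p = 2.22e-89), *ABHD4*, 0.67 ± 0.058 (adjusted p = 1.1e-29), and *GDF15*, 0.64 ± 0.056 (adjusted p = 7.75e-29). The 8 genes not called lay between -0.38 for *VWCE* and 0.13 for *PLK3*, with 0.053 for *CMBL*, -0.019 for *DRAM1*, -0.04 for *PLK2*, -0.073 for *RPS27L*, -0.022 for *SAC3D1* and 0.046 for *ARHGEF3*. Of the 46 genes with a smaller response, 11 were higher in DMSO and lower in Nutlin-3a, such as *RRM2B* at 0.50 and -0.42 and *GREB1* at 0.95 and -0.52. Another 13 were lower in Nutlin-3a with no call in DMSO, such as *BTG2* at 0.031 and -1.14. Of the others, 10 were higher under both treatments, such as *GADD45A*, 6 were higher in DMSO with no call in Nutlin-3a, such as *PLK3*, and 6 were lower under both, such as *TP53INP1*. These classes were not counted over all genes, so the split is not shown to be particular to these targets. The difference that chose the 46 genes is formed from the same effects, and the split is a description. Of the markers, 1 mesenchymal and bone gene was higher and 3 were lower, with *VIM* at -0.94 and *COL1A1* at 0.25, and 4 epithelial genes were higher and 1 was lower, with *KRT18* at 0.74 and *CLDN4* at -1.29. *PTPRC*, *CDH5* and *PECAM1* were not called. Their part in these effects, and in the smaller response, was not tested.

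**Figure D4:**
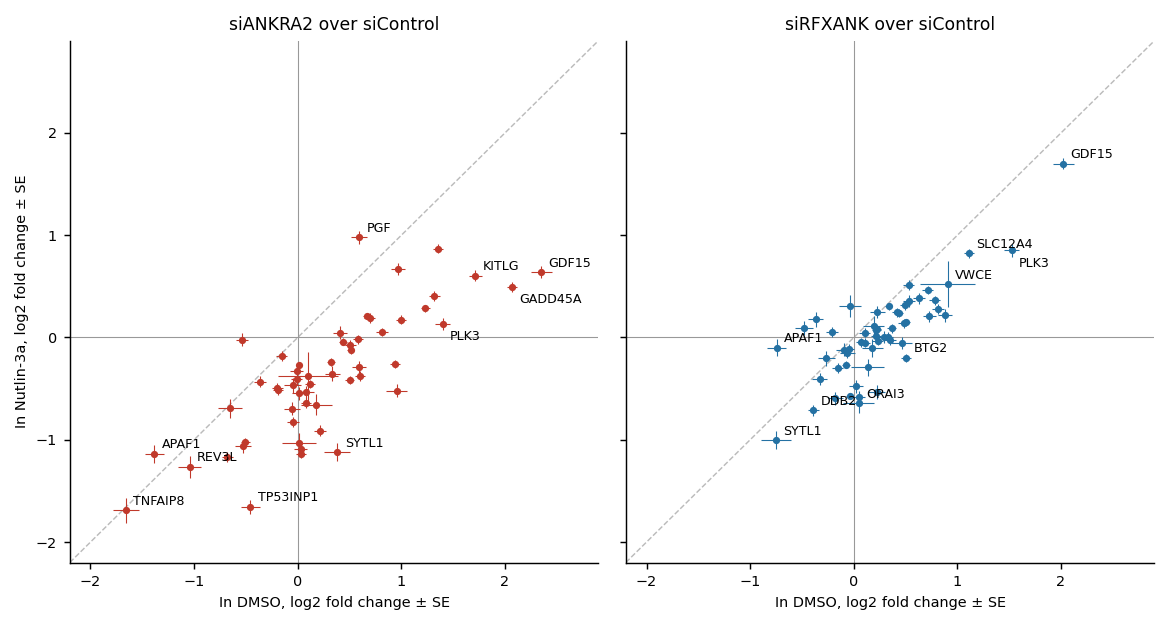
Effect of siANKRA2 (left) and siRFXANK (right) on the 55 genes, as log2 fold change over siControl with its standard error, in DMSO on the horizontal and in Nutlin-3a on the vertical axis, with a dashed line where both are equal. On the left most points lie below the line, with *GDF15* at 2.35 in DMSO and 0.64 in Nutlin-3a, and on the right they lie closer to it.

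After siRFXANK in DMSO, 30 of the 55 genes were higher and 10 lower than in siControl cells, whereas 20.9% of the 25909 genes tested were higher and 21.2% lower. The median was 0.22, against 0.0063 for all genes. *GDF15* was highest again, 2.02 ± 0.10 (adjusted p = 8.37e-83), before *PLK3*, 1.52 ± 0.068 (adjusted p = 1.41e-107), *SLC12A4*, 1.11 ± 0.047 (adjusted p = 2.25e-119), and *VWCE*, 0.91 ± 0.26 (adjusted p = 0.00194). *SYTL1*, -0.75 ± 0.14 (adjusted p = 9.27e-07), *APAF1*, -0.75 ± 0.088 (adjusted p = 2.53e-16), *TGFA*, -0.48 ± 0.086 (adjusted p = 1.36e-07), and *DDB2*, -0.39 ± 0.054 (adjusted p = 2.98e-12), were lowest. Of the 15 genes not called, those of repair, metabolism and cell death were at -0.037 for *REV3L*, 0.046 for *TP53I3*, 0.18 for *PANK1*, 0.019 for *ABHD4*, 0.073 for *DRAM1* and 0.19 for *TNFAIP8*. Those of RNA handling and the ligand were at -0.05 for *DCP1B*, 0.10 for *TRIM32*, -0.076 for *FBXO22* and -0.063 for *KITLG*, and the membrane and signalling genes at 0.13 for *TSPAN11*, 0.046 for *ORAI3*, 0.11 for *CYFIP2*, -0.093 for *PLCL2* and -0.038 for *RAP2B*.

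In Nutlin-3a, 21 genes were higher and 15 lower after siRFXANK, whereas 19.8% of the 25116 genes tested were higher and 19.6% lower. As shares of the 55, 38.2% were higher and 27.3% lower. The median was 0.047, against 0.018 for all genes. The same genes were highest as in DMSO, *GDF15* at 1.70 ± 0.055 (adjusted p = 1.64e-204), *PLK3* at 0.85 ± 0.059 (adjusted p = 5.09e-45), *SLC12A4* at 0.82 ± 0.045 (adjusted p = 1.05e-72) and *VWCE* at 0.52 ± 0.22 (adjusted p = 0.0464). Lowest were *SYTL1*, -1.01 ± 0.087 (adjusted p = 1.56e-29), *DDB2*, -0.71 ± 0.051 (adjusted p = 9.23e-43), *ORAI3*, -0.64 ± 0.098 (adjusted p = 4.45e-10), and *EPS8L2*, -0.60 ± 0.062 (adjusted p = 7.13e-21). The 19 genes not called held 5 of repair and metabolism, at 0.051 for *POLH*, 0.088 for *TIGAR*, 0.0061 for *FUCA1*, -0.03 for *NADSYN1* and -0.11 for *PANK1*, and 4 of cell death and autophagy, at -0.10 for *APAF1*, 0.0068 for *CDIP1*, -0.048 for *DRAM1* and 0.11 for *TNFAIP8*. They also held 5 of arrest and RNA handling, at 0.079 for *PLK2*, 0.012 for *DUSP14*, -0.11 for *DCP1B*, -0.022 for *RPS27L* and 0.047 for *TRIM32*, and 5 others, at 0.095 for *TGFA*, 0.072 for *SUSD6*, -0.051 for *CYFIP2*, -0.12 for *PLCL2* and -0.055 for *GREB1*. Of the 31 genes with a smaller response after siRFXANK, 14 were higher than in siControl cells under both treatments, such as *PLK3* and *FDXR*. Another 8 were higher in DMSO with no call in Nutlin-3a, and *TP53INP1* and *BTG2* were higher in DMSO and lower in Nutlin-3a. The remaining genes were lower in Nutlin-3a, 5 with no call in DMSO, such as *TP53I3*, and 2 also lower in DMSO, *DDB2* and *EPS8L2*. This split too was not counted over all genes and is not shown to be particular to these targets. It classes the 31 genes by the same effects whose difference chose them, and is a description. Of the 6 mesenchymal and bone markers 3 were higher and 1 lower after siRFXANK in DMSO and 0 and 3 in Nutlin-3a, where *ALPL* was at -1.35. Of the 6 epithelial markers 0 were higher and 3 lower under each treatment, with *CLDN4* at -0.64 and -1.58, and *PTPRC*, *CDH5* and *PECAM1* were not called. The part of the markers in these effects was not tested, and the effects and a batch cannot be told apart.

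**Figure D5:**
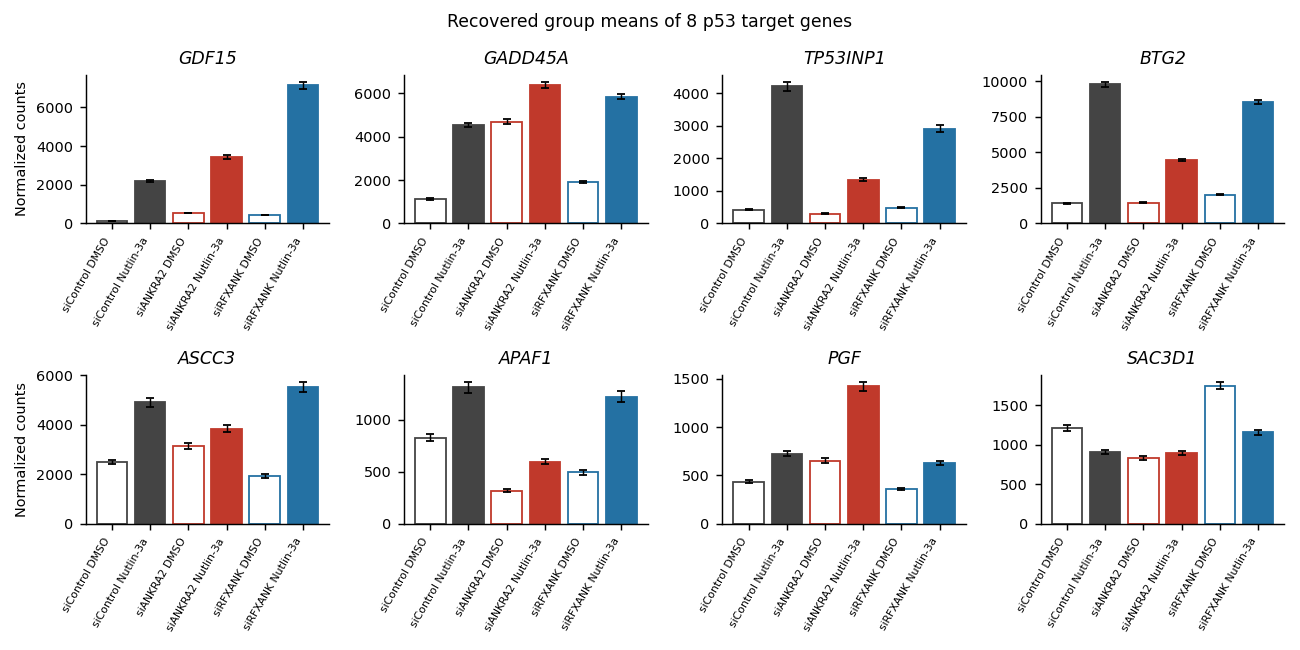
Recovered group means of 8 of the genes in normalized counts for the 6 groups, with open bars for DMSO and filled bars for Nutlin-3a. Error bars are the standard error that the fitted mean and dispersion give for 3 samples, and show *GADD45A* in siANKRA2 cells in DMSO at 4703, next to 4548 in siControl cells with Nutlin-3a.

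Other genes of the p53 pathway were described for comparison, as a list of 14 with *MDM2*, *MDM4*, *PPM1D*, *CCNG1*, *CDKN1A*, *SESN1*, *SESN2*, *PHLDA3*, *PIDD1*, *BAX*, *BBC3*, *PMAIP1*, *FAS* and *TNFRSF10B*. In siControl cells all 14 were higher with Nutlin-3a, at a median of 1.55, whereas 21.9% of all genes tested were higher. Their response was smaller in siANKRA2 cells for 13 and in siRFXANK cells for 9, and larger for 0 in either. Of all genes tested, 12.5% and 9.64% had a lower value. Among genes at least 2-fold higher in siControl cells with an authors' mean of at least 100, 89.2% and 42.9% had a smaller response. The counts are thus not shown to be particular to the 14 genes. The difference of response of *CDKN1A*, the CDK inhibitor p21, was -1.85 ± 0.055 after siANKRA2 and -0.82 ± 0.056 after siRFXANK. That of *MDM2* was -1.19 ± 0.069 and -0.33 ± 0.068. The levels behind these differences moved in unlike ways. Against siControl cells, *CDKN1A* was at 2.04 in DMSO and 0.20 in Nutlin-3a after siANKRA2. After siRFXANK it was at -0.058, not called, and -0.88. *MDM2* was at -0.11, not called, and -1.30 after siANKRA2, and at 0.48 and 0.15 after siRFXANK.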

How the data were processed

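The series holds RNA-seq of 18 U2OS samples, 3 in each of 6 groups, grouped by the transfection and treatment in the sample labels. The authors deposited 6 tables of comparisons with no values per library, so the depth of a library is unknown. Each table gives the authors' mean normalized count of a gene over all samples, taken here as a signal value, the authors' log2 fold change and the standard error of that log2 value, the deposited Wald score, and the authors' p-value, both raw and after Benjamini-Hochberg adjustment. The submitters' processing notes name bcl2fastq 2.20.0.422, Trimmomatic 0.39, FastQC 0.11.9, cutadapt 2.10, SAMtools 1.10, Picard, featureCounts 1.6.5, DESeq2 1.20.0 and the build hg38, and the role of each, the aligner, the annotation and the use of strand in counting are not given in the sources used here. Without strand, reads of overlapping genes cannot be told apart, and 36 of the 55 genes overlap another gene of GENCODE 29.

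The 4 siControl and siANKRA2 tables come from 1 joint fit, since log2 fold changes summed around their 4 groups gave 0 with an error of at most 1.4e-14. The siRFXANK tables enter no such sum, and the derived siRFXANK response and its standard error assume that they share the fit. They gave the same authors' mean for each of 22738 genes, and their standard errors for the 55 genes, predicted from the other 4 tables, were off by at most 1.3% in DMSO and 0.66% in Nutlin-3a. Knockdown comparisons were read as siRNA over siControl, the direction in which the targets are lower. A difference of responses was set against its standard error, taken from the sum of both variances, in a two-sided normal test with Benjamini-Hochberg adjustment over every gene that had both responses. The siRFXANK response was derived from both siRFXANK comparisons and the siControl response. Group means and a dispersion were recovered by least squares from the fold changes and standard errors with n = 3. The authors' mean over the mean of the 6 recovered means was 0.947 in the median gene of the 55, from 0.709 to 1.26, so recovered means are approximate. A group mean of 3 normalized counts or less was set as a floor, and the lowest group mean of the 55 genes was 23.0.

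Every gene of the set is named at least once. Full values are given for the largest and smallest siControl response in each role, and for the 4 highest and 4 lowest called genes of each siRNA effect and response difference. Of the list of other p53 pathway genes, 1 gene is not reported here. The set, its roles and the other gene lists were chosen with earlier results of these data known. Alternatives were a threshold of 0.01, a log2 change of at least 1, an authors' mean of at least 10 or 100, recomputed adjustment, another pair of tables, another scale of the group means and other mismatch limits. The steps were tested on simulated data. Python 3.11.15 was used with pandas 2.3.3, numpy 2.4.6 and scipy 1.17.1.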

Additional observations from a re-analysis of the deposited data

Results flagged for a closer look

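For 48 of the 55 genes, the Nutlin-3a response in siANKRA2 cells differed from that in siControl cells by the normal test of the difference with Benjamini-Hochberg adjustment. Of the 22738 genes tested, 12.5% had a lower and 11.4% a higher value. The 48 genes are listed with the difference on the log2 scale, siANKRA2 minus siControl. The values in DNA repair and nucleotide supply were -0.52 for *XPC*, -0.40 for *DDB2*, -0.92 for *RRM2B*, -0.69 for *ASCC3* and -1.57 for *GADD45A*. Metabolic genes were at -1.19 for *TIGAR*, -0.56 for *FDXR*, -1.12 for *TP53I3*, -0.64 for *FUCA1*, -0.78 for *NADSYN1*, -0.76 for *CMBL* and -0.29 for *ABHD4*. In cell death and autophagy they were -0.45 for *AEN*, -1.20 for *TP53INP1*, -0.51 for *TRIAP1*, -0.57 for *CDIP1*, -0.49 for *IKBIP*, -0.60 for *DRAM1* and -0.88 for *EDA2R*. Arrest genes and kinases were at -1.17 for *BTG2*, -0.47 for *PLK2*, -1.27 for *PLK3*, -0.91 for *SERTAD1* and -0.49 for *DUSP14*. RNA and protein handling had -1.13 for *ZMAT3*, -0.30 for *DCP1B*, -0.58 for *RPS27L*, -0.56 for *FBXO22* and 0.52 for *SAC3D1*. Ligands were at -1.71 for *GDF15*, -1.11 for *KITLG*, 0.38 for *PGF* and -0.42 for *TGFA*. Membrane protein genes were at -0.32 for *NINJ1*, -0.32 for *PLXNB2*, -0.94 for *SUSD6*, -0.63 for *TM7SF3*, -1.04 for *TSPAN11*, -0.84 for *ORAI3* and -0.72 for *SLC12A4*. Signalling and trafficking genes were at -0.83 for *BLOC1S2*, -0.98 for *CYFIP2*, -0.54 for *EPS8L2*, -0.62 for *PLCL2*, -0.29 for *RAP2B*, -1.50 for *SYTL1*, -0.36 for *ARHGEF3* and -1.48 for *GREB1*.

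The same test set the response in siRFXANK cells apart from that in siControl cells for 35 genes, where a batch drops out only as far as it acts alike in DMSO and Nutlin-3a. Of the 25116 genes tested, 9.64% had a lower and 11.6% a higher value. The values in DNA repair and nucleotide supply were -0.17 for *XPC*, -0.32 for *DDB2*, 0.26 for *POLH*, -0.19 for *RRM2B*, 0.54 for *ASCC3* and -0.42 for *GADD45A*. Metabolic genes were at -0.28 for *TIGAR*, -0.66 for *FDXR*, -0.62 for *TP53I3*, -0.29 for *FUCA1*, -0.26 for *NADSYN1*, -0.25 for *CMBL* and -0.50 for *ABHD4*. In cell death and autophagy they were 0.64 for *APAF1*, -0.75 for *TP53INP1*, -0.32 for *CDIP1* and -0.18 for *IKBIP*. Arrest genes and kinases were at -0.70 for *BTG2*, -0.14 for *PLK2*, -0.67 for *PLK3*, -0.54 for *SERTAD1* and -0.20 for *DUSP14*. RNA and protein handling had -0.25 for *ZMAT3*, -0.37 for *RPS27L* and -0.19 for *FBXO22*. Ligands were at -0.32 for *GDF15* and 0.57 for *TGFA*. Membrane protein genes were at -0.52 for *NINJ1*, -0.36 for *TM7SF3*, -0.69 for *ORAI3* and -0.29 for *SLC12A4*. Signalling and trafficking genes were at -0.34 for *BLOC1S2*, -0.42 for *EPS8L2*, -0.54 for *RAP2B* and -0.52 for *GREB1*.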

How the results depend on the processing

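With a threshold of 0.01, an authors' mean of at least 10 or 100, a recomputed Benjamini-Hochberg adjustment or the siANKRA2 over siControl tables for the response difference, each count of the 55 genes stayed within 1.5 times its value and no gene changed direction. Calls lost at 0.01 numbered 14 over 9 comparisons, and the mean filters added 4 and 10. The limit of 100 also left out *VWCE*, at an authors' mean of 40.0. At that limit, the genes higher with Nutlin-3a in siControl cells went from 53 to 52. With a log2 change of at least 1 also required, counts fell by construction. In siControl cells the response kept 42 higher and 0 lower genes, in siANKRA2 cells 19 higher, and in siRFXANK cells 34 higher and 0 lower. The siANKRA2 effect kept 7 higher and 3 lower genes in DMSO and 0 and 11 in Nutlin-3a, and the siRFXANK effect 3 and 0 in DMSO and 1 and 1 in Nutlin-3a. The response differences kept 0 higher and 12 lower genes for siANKRA2, and 0 and 0 for siRFXANK, where 35 genes pass at an adjusted p under 0.05 alone. The share of promoter windows with a p53 consensus match was 0% with at most 1 mismatch, against 0.0916% of all windows, and 20% with at most 3. No paired analysis was possible because the tables give comparisons between groups, not values of single samples. Leaving out samples, another count model and a filter on raw counts were likewise not run, and no library's weight in a value is known.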

Other observations

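Ordered by recovered group mean, 25 of the 55 genes were highest in siRFXANK cells with Nutlin-3a, 20 in siControl cells with Nutlin-3a and 9 in siANKRA2 cells with Nutlin-3a. *SAC3D1* was the exception, highest in siRFXANK cells in DMSO. The lowest group was siControl in DMSO for 28 genes, siANKRA2 in DMSO for 16 and siRFXANK in DMSO for 11. Neighbours in these orders were not tested as such, and any order that sets siRFXANK against the other cells holds a possible batch. Apart from *TIGAR* and *ORAI3*, 3 genes shared over 10% of the 31-base stretches of their longest transcript with other genes, *RPS27L* with 12.1%, *CMBL* with 11.7% and *PANK1* with 10.8%.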
